A study of Mus musculus with 6 samples.

Results

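Lymphoid and mucosal trafficking receptors are the 8 genes Ccr6, Ccr7, Ccr10, Cxcr3, Cxcr4, Gpr15, Gpr183 and Gpr44, taken by symbol from 26286 genes that were counted in sorted mouse regulatory T cells (Treg). All 8 were found in the count tables, and all 8 held enough counts to be tested. GFP+ Treg were CD4+ CD25high cells in which a green fluorescent protein reporter of Blimp-1 was on. GFP- Treg were CD4+ CD25high cells from the same kind of mice in which the reporter was off. All animals were C57BL/6 mice with the Blimp1/GFP reporter, the sample titles carry the prefix BlimpHet, and spleens and lymph nodes were pooled before sorting, so that cells of both organs are mixed in every library. The sources used here give neither age nor sex. Each population had 3 libraries, which the study's design calls biologically independent: 1 from poly(A) RNA and 2 by an amplification protocol devised for single cells, used here on sorted populations. By the numbers in the titles, the poly(A) libraries are GFP+ 19 and GFP- 20, and the single-cell protocol libraries are GFP+ 1 and 4 with GFP- 2 and 5. Where 3 values of a population follow each other, the poly(A) library is given before the others, which stand in the order of their numbers.

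These genes encode receptors coupled to G proteins that steer migrating lymphocytes along gradients of chemokines, oxysterols or prostaglandins. Ccr7 binds CCL19 and CCL21 and brings naive T cells into lymph nodes and the T cell zone of the spleen, Cxcr4 binds CXCL12, and Gpr183 (also called EBI2) follows oxysterols made by stromal cells. Cxcr3 binds CXCL9, CXCL10 and CXCL11 of interferon-stimulated tissue, Ccr6 binds CCL20 of epithelia, Ccr10 binds CCL27 of skin and CCL28 of mucosa, and Gpr15 is a homing receptor of the large intestine. Gpr44, now named Ptgdr2 and also known as CRTH2, is a receptor of prostaglandin D2 found on type 2 helper T cells, eosinophils and basophils.

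Libraries held between 15224051 and 28354321 counts. The single-cell protocol table had no counts on chromosomes 8 and 9 and counts for only 2 genes of chromosome 3, and none of the 8 receptors lies on these chromosomes. Prdm1, which encodes Blimp-1, checked the sort: it had 152, 44.3 and 29.5 CPM (counts scaled to library size by the trimmed mean of M values) in GFP+ libraries and 9.14, 2.46 and 2.66 CPM in GFP- libraries. By the test given below, 9.82% of all tested genes were called higher in GFP+ libraries. Of the markers of Treg and T cells, Foxp3, Cd4 and Cd5 were present in every library, and 1 of 7, Ctla4, was called higher. Il2ra, which encodes CD25, went the other way, with a fitted log2 difference of -0.64 ± 0.23 (SE, edgeR adjusted p = 0.111). GFP+ was higher for Il2ra in 0 of 5 comparisons within a protocol. With edgeR 0 of the 7 were called lower, and with DESeq2 1 was. Macrophage and myeloid markers were called higher for 11 of 11 tested members of 13. Their summed level was 766 to 1763 CPM in GFP+ libraries and 15.1 to 29.9 CPM in GFP- libraries. Cd14 was at 0 in GFP- replicate 5, and Itgam was at 0 in GFP- replicates 2 and 5.

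Setting GFP+ beside GFP- Treg shows which homing receptors go with the Blimp-1 reporter. In GFP+ Treg 5 of the 8 receptors rose, Ccr10, Gpr44, Cxcr3, Ccr6 and Gpr15, while Ccr7 fell. Cxcr4 and Gpr183 did not pass the test. Over all 10550 genes tested, 9.82% were called higher and 3.72% lower (edgeR quasi-likelihood test with the protocol as a covariate, Benjamini-Hochberg adjusted p under 0.05). The median log2 fold change was 1.44 over the 8 receptors and -0.08 over all tested genes. The receptors were grouped with earlier results of these data known, so their share is a description. In bulk RNA, fewer cells that carry a receptor and less RNA in each cell cannot be told apart. The part of the myeloid cells' RNA in these differences was not tested.

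**Figure D1:**
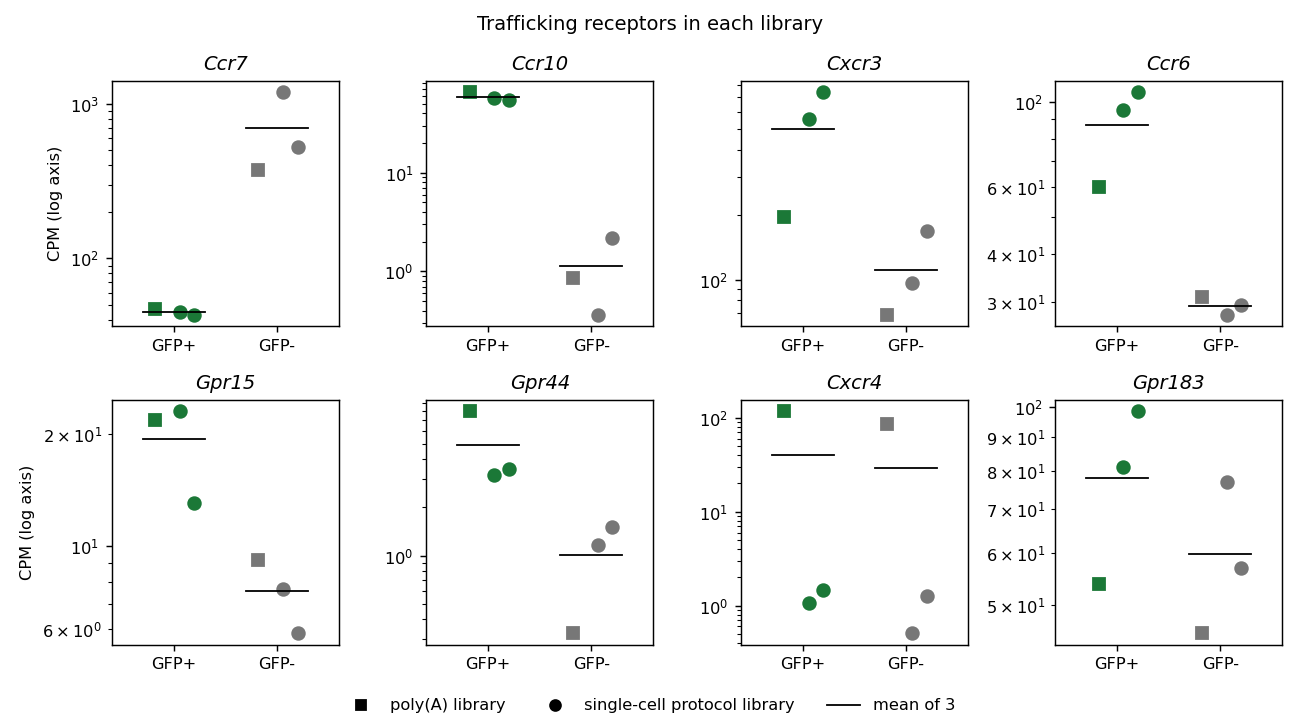
CPM of each receptor (log axis, 1 panel per gene) in the 3 GFP+ and 3 GFP- libraries, with squares for poly(A) libraries, circles for single-cell protocol libraries and a line at the mean of 3. GFP+ libraries lie below all GFP- libraries for Ccr7, as for 5.08% of tested genes. They lie above them for Ccr10, Cxcr3, Ccr6, Gpr15 and Gpr44, as for 8.45% of tested genes, while Cxcr4 splits by protocol.

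Among the receptors of lymphoid organs, Ccr7 was the only 1 of the 8 that fell. Its raw counts were 2321, 553 and 596 in GFP+ libraries, against 17025, 16361 and 4140 in GFP- libraries. GFP+ libraries were close to each other, at 45.2 ± 2.0 CPM, and GFP- libraries spread widely, at 693 ± 433 CPM (SD, n = 3 each). All GFP+ libraries lay below all GFP- libraries, as for 5.08% of tested genes. Its fitted log2 difference was -3.84 ± 0.44 (SE, 3 libraries each, edgeR adjusted p = 0.00074), which ranked 17 from the bottom of the 10550 genes. Within the poly(A) pair the log2 ratio was -2.97. The single-cell protocol libraries alone gave -4.29 (edgeR, 2 libraries against 2, adjusted p = 0.000634).

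Cxcr4, the receptor that holds cells in bone marrow and lymphoid niches, was nearly lost in the single-cell protocol. Poly(A) libraries had 5832 counts in GFP+ and 3933 counts in GFP- Treg, and the other libraries had 13 and 20 counts in GFP+ and 7 and 10 counts in GFP- Treg. The exact 95% Poisson intervals of these small counts, which cover counting error only, were 6.92 to 22.2 and 12.2 to 30.9 in GFP+ and 2.81 to 14.4 and 4.80 to 18.4 in GFP- Treg. Its fitted protocol difference, poly(A) over single-cell protocol, was 6.62 ± 0.32 on the log2 scale, and 20 of 10550 tested genes had a larger one. The population difference of Cxcr4 was 0.54 ± 0.32 (SE, edgeR adjusted p = 0.335), and GFP+ was higher in 4 of the 5 comparisons within a protocol. The count intervals are of raw counts in libraries of unlike depth, so their overlap does not compare the populations. In CPM the single-cell protocol libraries had 1.06 and 1.45 in GFP+ and 0.507 and 1.27 in GFP- Treg. The poly(A) pair, at 119 CPM in GFP+ and 85.5 CPM in GFP- Treg, has no replicate check.

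Gpr183 was present at moderate levels in every library, at 53.8, 81.0 and 98.6 CPM in GFP+ and 45.3, 77.0 and 56.9 CPM in GFP- Treg. The populations overlapped across protocols, although GFP+ was higher in 5 of 5 comparisons within a protocol. Gpr183 had a fitted log2 difference of 0.36 ± 0.23 (SE, edgeR adjusted p = 0.350). Gpr183 overlaps the gene Ubac2 by the RefSeq annotation. Ubac2 had -0.74 ± 0.24 (edgeR adjusted p = 0.0782). The overlap, like those of Ccr10 and Gpr44 given below, is of whole gene spans, and exons were not compared. No source used here states whether strand was counted, and whether reads of both genes were shared was not tested.

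Of the receptors of skin and mucosa, Ccr10 had the largest difference of the 8. Raw counts were 3210, 690 and 759 in GFP+ libraries, against 39, 5 and 17 in GFP- libraries. Fitted over all libraries, Ccr10 rose by 5.90 ± 0.50 on the log2 scale (SE, edgeR adjusted p = 0.000179) and ranked 35 from the top of 10550 genes. GFP- levels were near the counting limit: the exact Poisson interval of the 5 counts ran from 1.62 to 11.7. The CPM ratio was 77.0 in the poly(A) pair and 44.3 for the means of the single-cell protocol libraries. The 3 GFP+ libraries were close, at 58.9 ± 5.6 CPM, and the 3 GFP- libraries were at 1.12 ± 0.93 CPM (SD).

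Ccr10 overlaps Cntnap1, the gene of a contactin-associated protein known from myelinated axons, in the RefSeq annotation. Cntnap1 had 1205 counts in the GFP+ and 36 counts in the GFP- poly(A) library, a ratio of 31.3 in CPM. In the single-cell protocol it had 3 and 5 counts in GFP+ and 0 and 0 counts in GFP- libraries, beside the 690 and 759 counts of Ccr10 in the same GFP+ libraries. The part of Cntnap1 reads in the poly(A) value of Ccr10 was not tested. Ccr10 is also known from plasma cells. Of a list of genes taken as their markers, 3 of 6 tested members were higher, Sdc1, Txndc5 and Irf4, where 9.82% of all tested genes were. Whether Treg themselves carry RNA of these genes, Irf4 among them, was not tested. The list of 7 summed to 198 to 321 CPM in GFP+ and 75.2 to 101 CPM in GFP- libraries. Tnfrsf17 was at 0 counts in GFP+ replicates 19 and 1. Igj had 11.3, 8.75 and 136 CPM in GFP+ and 1.54, 1.52 and 15.8 CPM in GFP- libraries and did not pass (edgeR adjusted p = 0.0867). The part of plasma cells' RNA in the level of Ccr10 was not tested.

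Gpr15 rose with a smaller difference. It had 21.9, 23.1 and 13.0 CPM in GFP+ libraries, against 9.20, 7.68 and 5.83 CPM in GFP- libraries. Every GFP+ library lay above every GFP- library, as for 8.45% of tested genes in this direction. Gpr15 rose by 1.35 ± 0.28 on the log2 scale (SE, edgeR adjusted p = 0.0133). The call was lost when GFP- replicate 20 (edgeR adjusted p = 0.0728), GFP+ replicate 19 (0.0751) or GFP+ replicate 1 (0.0647) was left out. Without either poly(A) library the protocol covariate takes up the other, so both fits rest on the single-cell protocol libraries. These alone gave an edgeR adjusted p of 0.0744, so those fits are not separate checks.

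Ccr6 was 2.88-fold higher in GFP+ Treg, with GFP- libraries close to each other. It had 60.0, 95.2 and 106 CPM in GFP+ libraries, against 30.9, 27.7 and 29.4 CPM in GFP- libraries. The populations do not overlap, with GFP+ above GFP- as for 8.45% of tested genes. On the log2 scale the fitted rise was 1.53 ± 0.25 (SE, edgeR adjusted p = 0.00432). The ratio was 1.94 in the poly(A) pair and 3.52 for the means of the single-cell protocol libraries, which alone gave a log2 fold change of 1.80 (edgeR adjusted p = 0.0114).

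Cxcr3, the receptor of inflamed tissue, was the most abundant of the receptors in GFP+ Treg. GFP+ libraries had 194, 558 and 739 CPM, and GFP- libraries had 68.6, 96.8 and 167 CPM. The highest GFP- library lay below the lowest GFP+ library, as for 8.45% of tested genes, with little room between them across protocols. Within a protocol the ratio was 2.84 in the poly(A) pair and 4.91 for the means of the other libraries. Cxcr3 rose by 2.03 ± 0.33 on the log2 scale (SE, edgeR adjusted p = 0.00418), and the single-cell protocol libraries alone gave 2.28 (edgeR adjusted p = 0.0140).

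Gpr44 was low in all libraries and differed most between protocols in the size of its rise. It had 396 counts in the GFP+ and 15 counts in the GFP- poly(A) library, a CPM ratio of 24.7. The single-cell protocol libraries had 39 and 48 counts in GFP+ and 16 and 12 counts in GFP- Treg, a ratio of mean CPM of 2.49. The exact Poisson intervals were 27.7 to 53.3 and 35.4 to 63.6 counts in GFP+, and 9.15 to 26.0 and 6.20 to 21.0 counts in GFP- Treg. These are raw counts of libraries of unlike depth, so the gap between the intervals does not compare the populations. In CPM these libraries had 3.19 and 3.48 in GFP+ and 1.16 and 1.52 in GFP- Treg. Over all libraries Gpr44 rose by 2.54 ± 0.66 on the log2 scale (SE, edgeR adjusted p = 0.0359). Its log2 difference was 1.33 without GFP- replicate 20 (edgeR adjusted p = 0.197) and 1.33 without GFP+ replicate 19 (edgeR adjusted p = 0.229). In both fits the protocol covariate takes up the lone poly(A) library, so they rest on the single-cell protocol libraries. Those libraries alone gave 1.32 (edgeR adjusted p = 0.199), so these are not separate checks. Without GFP+ replicate 1 the difference was 2.90 (edgeR adjusted p = 0.0775). The call thus did not hold without either poly(A) library or without GFP+ replicate 1. Gpr44 overlaps Ccdc86 by the RefSeq annotation, and Ccdc86 had 0.02 ± 0.22. Markers of basophils, eosinophils and mast cells, which also carry Gpr44, summed to 1.23 to 5.36 CPM in GFP+ and 2.66 to 6.57 CPM in GFP- libraries over the 9 of 10 genes outside chromosomes 3, 8 and 9. Fcer1a and Ms4a2, the alpha and beta chains of the IgE receptor, were at 0 counts in all 6 libraries. The others of these 9 genes had counts in at least 1 library. Only 1 marker of this list was tested, Kit, which fell, where 3.72% of all tested genes did. That call was lost with libraries scaled to general T cell genes. The part of these cells' RNA in the level of Gpr44 was not tested.

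**Figure D2:**
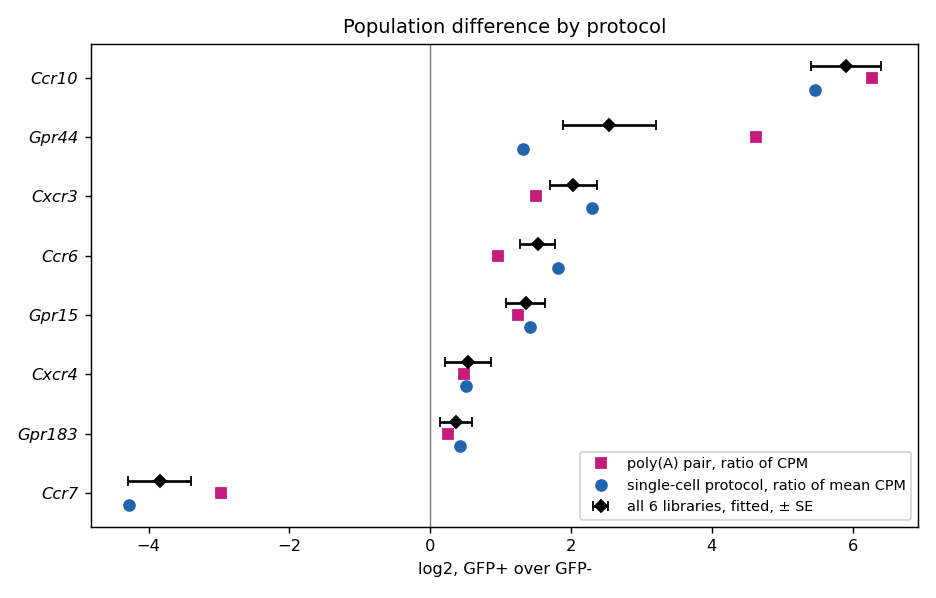
Log2 of GFP+ over GFP- for each receptor, from the fit to all 6 libraries (diamonds, ± SE), the poly(A) pair (squares, ratio of CPM) and the single-cell protocol libraries (circles, ratio of mean CPM). All 3 values lie on the same side of 0 for each receptor, and those of Gpr44 lie farthest apart, at 4.63 in the poly(A) pair and 1.32 in the single-cell protocol libraries.

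The dependence on protocol was tested as an interaction of population and protocol, with 2 residual degrees of freedom. None of the 8 receptors passed, as for all tested genes (0 of 10550, background 0%, edgeR quasi-likelihood test, smallest adjusted p = 0.9999). An unadjusted p under 0.05 was reached by 27 genes, 0.256% of those tested. That is fewer than this cut-off alone would give without any interaction. The test was thus too weak to decide whether a difference depends on protocol. Gpr44 was among these 27 genes, with an interaction of 3.27 on the log2 scale (unadjusted p = 0.00287, adjusted p = 0.9999). The other receptors had unadjusted interaction p-values between 0.159 for Ccr7 and 0.869 for Cxcr4. Of the called receptors, Cxcr3 had a protocol difference past the threshold, at -1.32 ± 0.36 (edgeR adjusted p = 0.0110), which is lower in poly(A) libraries. With the single-cell protocol libraries alone Ccr10, Cxcr3 and Ccr6 were called higher and Ccr7 lower, where 5.54% and 1.41% of tested genes were.

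**Figure D3:**
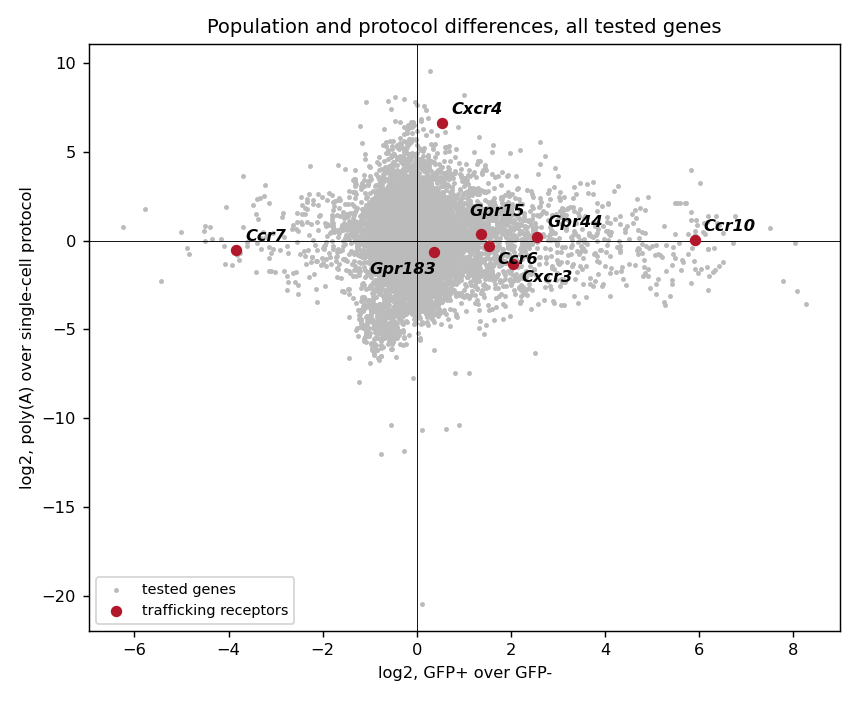
Fitted log2 difference between populations (x axis, GFP+ over GFP-) and between protocols (y axis, poly(A) over single-cell protocol) for the 10550 tested genes (grey) and the 8 receptors (red). Ccr7 at -3.84 and Ccr10 at 5.90 lie at opposite ends of the population axis, and Cxcr4 lies apart at 6.62 on the protocol axis.

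Levels of different receptors were compared as CPM per kilobase of gene length, for which both tables list the same length of each receptor, between 1290 bases for Gpr15 and 2942 bases for Gpr183. In GFP+ Treg Cxcr3 stood highest in 3 of 3 libraries, at 121, 347 and 460 CPM per kilobase. In GFP- Treg Ccr7 stood highest in 3 of 3 libraries, at 188, 600 and 266 CPM per kilobase. Behind Cxcr3 came Cxcr4 in the GFP+ poly(A) library, at 65.4 CPM per kilobase, while it was lowest of the 8 in the other GFP+ libraries, at 0.586 and 0.799. GFP+ libraries held Ccr6 at 28.7, 45.5 and 50.6 CPM per kilobase, Ccr10 at 37.9, 32.7 and 31.9, and Gpr183 at 18.3, 27.5 and 33.5. Ccr6 stood above Gpr183 in 3 of 3 GFP+ libraries, and the place of Ccr10 beside them changed between libraries. Ccr7 had 23.9, 22.9 and 21.9 CPM per kilobase in GFP+ libraries, above Gpr183 in the poly(A) library and below it in the others. Gpr15 lay below both in each GFP+ library, at 17.0, 17.9 and 10.1 CPM per kilobase. In GFP- libraries Cxcr3 followed Ccr7 in the single-cell protocol, at 60.2 and 104 CPM per kilobase, and lay beside Cxcr4 in the poly(A) library, with 42.6 for Cxcr3 and 47.2 for Cxcr4. Gpr183 at 15.4, 26.2 and 19.3 and Ccr6 at 14.8, 13.3 and 14.0 CPM per kilobase came next in GFP- Treg. Ccr10 was among the lowest there, at 0.492, 0.210 and 1.25 CPM per kilobase, in the range of Gpr44 at 0.123, 0.438 and 0.575.

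A ratio of 2 receptors within a library does not depend on how libraries are scaled to each other. Cxcr3 over Ccr7, per gene length, was 5.06, 15.2 and 21.0 in GFP+ libraries and 0.227, 0.100 and 0.392 in GFP- libraries. Ccr10 over Ccr7 was 1.58, 1.43 and 1.46 in GFP+ libraries and 0.00262, 0.00035 and 0.0047 in GFP- libraries. Ccr6 over Ccr7 was 1.20, 1.99 and 2.31 in GFP+ libraries and 0.0787, 0.0221 and 0.0529 in GFP- libraries. In each ratio the populations did not overlap, which follows from the fall of Ccr7 and the rise of the other gene given above.

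**Figure D4:**
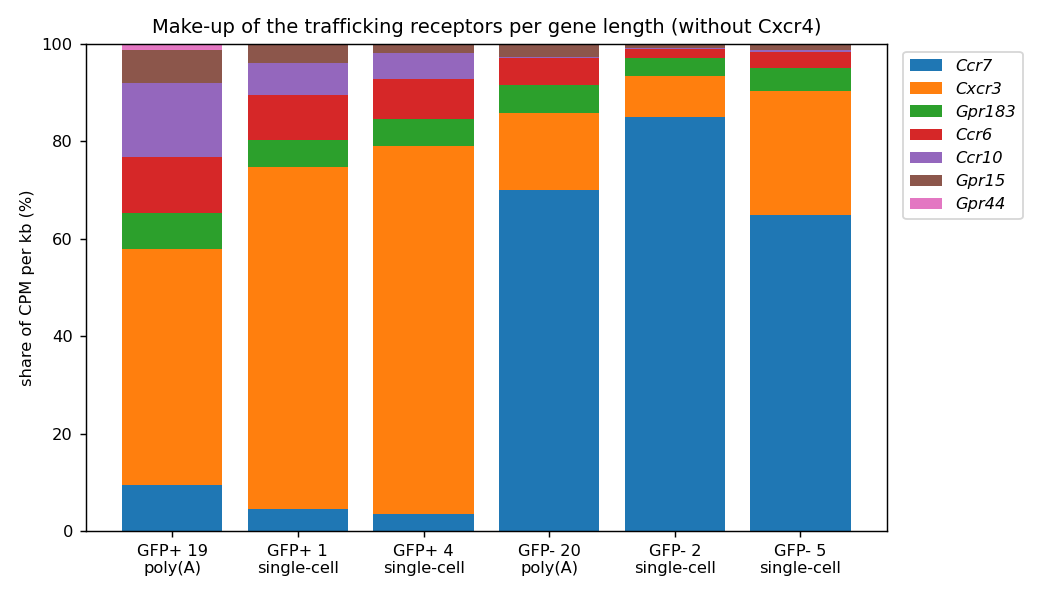
Share of each receptor (%) in the summed CPM per kilobase of 7 receptors, without Cxcr4, for the 3 GFP+ and 3 GFP- libraries. Cxcr3 makes up 48.4%, 70.1% and 75.5% of the GFP+ bars, and Ccr7 makes up 70.0%, 85.0% and 64.9% of the GFP- bars.

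Since Cxcr3, Ccr6, Gpr15 and Gpr44 rose together, the bases around their start sites are shown, from 250 bases before to 50 after the start, on the strand of the gene (RefSeq, GRCm38.p6, which is a later build than the authors' mm9). RefSeq start regions were matched for 6 of the 8 receptors. Ccr10, which rose as well, and Ccr7, which fell, had no matched region and are not shown. Capitals mark matches on either strand to GAAAGT, a core shared by sites of Blimp-1 and of interferon regulatory factors, to CACCC, a core of Kruppel-like factor sites, to TGTTTAC, a forkhead O site, or to TGANTCA, an AP-1 site. No match overlapped one of another motif.
Cxcr3, chrX:101734098-101734397, minus strand: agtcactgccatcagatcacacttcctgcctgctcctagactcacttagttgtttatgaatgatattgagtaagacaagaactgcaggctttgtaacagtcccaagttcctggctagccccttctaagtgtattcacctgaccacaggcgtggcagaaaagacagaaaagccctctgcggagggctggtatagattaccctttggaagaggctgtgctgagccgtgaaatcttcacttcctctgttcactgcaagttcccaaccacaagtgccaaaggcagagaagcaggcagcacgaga
Ccr6, downstream start, chr17:8242276-8242575, plus strand: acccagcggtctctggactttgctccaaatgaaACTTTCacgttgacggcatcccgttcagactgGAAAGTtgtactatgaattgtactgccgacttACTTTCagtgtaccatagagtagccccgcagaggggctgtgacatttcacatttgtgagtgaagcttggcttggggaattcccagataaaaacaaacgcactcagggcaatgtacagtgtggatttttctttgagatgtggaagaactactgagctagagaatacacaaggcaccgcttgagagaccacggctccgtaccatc
Gpr15, chr16:58718823-58719122, minus strand: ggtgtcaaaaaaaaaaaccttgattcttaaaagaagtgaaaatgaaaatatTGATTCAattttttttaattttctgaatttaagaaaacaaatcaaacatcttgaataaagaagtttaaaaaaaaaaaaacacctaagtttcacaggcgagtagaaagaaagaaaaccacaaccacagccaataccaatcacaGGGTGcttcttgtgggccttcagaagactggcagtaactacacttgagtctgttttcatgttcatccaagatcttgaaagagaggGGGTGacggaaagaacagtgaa
Gpr44, chr19:10936910-10937209, plus strand: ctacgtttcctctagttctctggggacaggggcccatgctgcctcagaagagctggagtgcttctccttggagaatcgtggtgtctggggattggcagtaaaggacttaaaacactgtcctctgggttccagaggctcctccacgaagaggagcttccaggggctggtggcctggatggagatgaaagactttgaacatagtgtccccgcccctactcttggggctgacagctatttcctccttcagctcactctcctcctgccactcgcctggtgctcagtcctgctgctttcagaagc

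The Ccr6 region at the downstream start held 3 matches to GAAAGT, whose first bases lie at positions -217, -185 and -153 from the start site, with the middle one on the strand of the gene. The upstream start of Ccr6, which is not printed, held no match to any of the 4 motifs. GAAAGT was in 14.3% of all 32851 start regions in the table. Gpr15 held TGATTCA at positions -199 to -193, a match to TGANTCA that 7.81% of regions share, and 2 matches to CACCC on the opposite strand, which 57.5% of regions hold. Neither Cxcr3 nor Gpr44 held a match to any of the 4 motifs, and TGTTTAC, found in 3.65% of regions, was in none of the 7 regions of the 6 receptors. These are matches of letters, and no binding was measured.

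The genes whose pattern over the 6 libraries was most like that of a receptor were taken by the root mean square difference of log2 CPM after removing each protocol's mean, among 6472 tested genes of at least 10 CPM. For Ccr7 these were Tcf7 (0.30), a transcription factor of naive and memory T cells, Dnah7a (0.32) and Lad1 (0.38), with fitted log2 fold changes of -3.62, -3.61 and -4.50. For Ccr10 they were Klrg1 (0.38), an inhibitory receptor of mature effector lymphocytes, Itgad (0.40), an integrin chain of macrophages, and Mrc1 (0.48), the macrophage mannose receptor. For Cxcr3 they were Cd74 (0.09), the invariant chain of MHC class II, Penk (0.09), which encodes proenkephalin, and Pon3 (0.10). For Ccr6 they were the spindle checkpoint gene Mad2l1 (0.10), Cd44 (0.11), a marker of activated T cells, and Cd200r1 (0.12). For Gpr15 they were Gm19328 (0.05), Knstrn (0.09), a gene of the mitotic spindle, and Sept11 (0.10). Gpr44 had Hip1 (0.24), Kctd12 (0.40) and Osbpl3 (0.47). Neither Cxcr4, beside Arpc4, Gm6682 and 1700122H20Rik, nor Gpr183, beside D16Ertd472e, Atp2b1 and Hif1a, was called, and their nearest genes were not called. All nearest genes were picked for a like pattern in these same libraries, so their population differences follow from the choice.

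Other receptors for chemoattractants were taken from a list of 41 genes, of which 40 were in the tables. On chromosomes 3, 8 and 9 lay 17 of them, 8 had too few counts and 15 were tested. Of these 15, 7 rose and 2 fell in GFP+ Treg (edgeR, Benjamini-Hochberg), where 9.82% of all tested genes rose and 3.72% fell, with a median log2 fold change of 0.56. Several are known from myeloid cells, whose markers rose in the same libraries. The formyl peptide receptor Fpr1 rose by 6.17 ± 0.44 and the leukotriene B4 receptor Ltb4r1 by 4.88 ± 0.28 on the log2 scale (SE, n = 3 per population). Fpr2, also a formyl peptide receptor, had 0.509, 2.13 and 2.90 CPM in GFP+ libraries and 0 counts in all GFP- libraries, at least 7.80-fold higher in the poly(A) pair against a floor of 3 counts per library. The chemerin receptor Cmklr1 rose by 5.48 ± 0.84, Gpr55, a receptor of lysophospholipids, by 2.91 ± 0.32 and the histamine receptor Hrh4 by 2.86 ± 0.55. Ptger4, a prostaglandin E2 receptor, rose by 1.09 ± 0.25, to 171, 51.9 and 80.7 CPM in GFP+ libraries, against 81.9, 27.7 and 34.1 CPM in GFP- libraries. Gpr18 and Gpr34 fell by 1.71 ± 0.24 and 1.69 ± 0.26. S1pr4, a sphingosine phosphate receptor picked after its value was seen, had 0.56 ± 0.34 and did not pass.

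**Figure D5:**
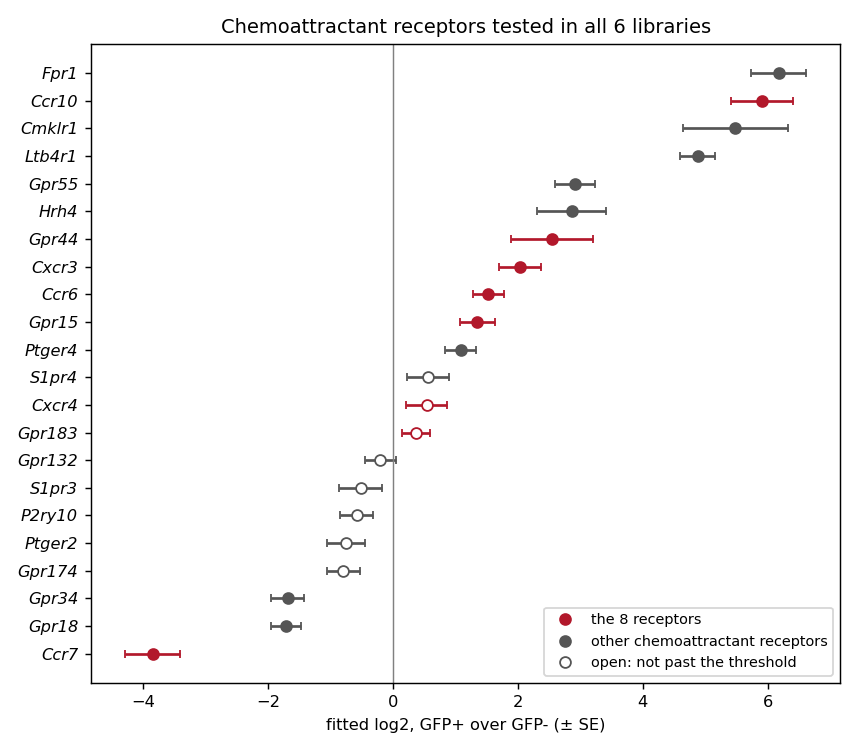
Fitted log2 of GFP+ over GFP- (± SE) for the 8 receptors (red) and 14 of the 15 other tested chemoattractant receptors (grey), with open circles where the adjusted p was 0.05 or more. Fpr2 is left out since it had no count in GFP- libraries. Ccr7 at -3.84 lies below all others shown, and Ccr10 at 5.90 lies beside Fpr1 at 6.17.

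For receptors on chromosomes 3 and 9 the poly(A) pair is the only measurement, without a replicate check. Among 11 of them with at least 10 CPM in either library, 7 were more than 2-fold higher and 1 more than 2-fold lower in GFP+ Treg. Of 1237 genes of chromosomes 3, 8 and 9 at that level, 6.71% were higher and 2.99% lower past this fold. Ccr4, a receptor of skin-homing T cells, had 120 CPM in the GFP+ and 24.99 CPM in the GFP- library, and Ccr8, a receptor of tissue Treg, had 102 CPM in the GFP+ and 25.9 CPM in the GFP- library. Cxcr6 had 58.3 CPM in the GFP+ and 10.1 CPM in the GFP- library. Ccr2 had 90.4 CPM in the GFP+ and 2.96 CPM in the GFP- library, and Ccr3 had 25.3 CPM in the GFP+ and 0.544 CPM in the GFP- library. Ccrl2 was 3.86-fold higher in the GFP+ library. Ccr2 is known from monocytes and Ccr3 from eosinophils as well as from T cells. Cxcr5, the receptor of B cell follicles, was lower, at 38.5 CPM in the GFP+ and 94.8 CPM in the GFP- library, and S1pr1, the receptor for leaving lymphoid organs, had 177 CPM in the GFP+ and 302 CPM in the GFP- library. In the same 2 libraries Ccr7 was at 47.2 CPM in the GFP+ and 370.3 CPM in the GFP- library.

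Genes that carry the signal inside the cell were called about as often in the lower direction as all tested genes. Of 30 genes for G proteins, receptor kinases, arrestins and motility factors, 25 were tested, 1 fell and none rose, where 3.72% of tested genes fell and 9.82% rose (edgeR; 2 higher and 2 lower at an unadjusted p under 0.05; DESeq2 called 2 lower and limma-voom none). The median log2 fold change was 0.16. Pik3r5, a regulatory subunit of the phosphoinositide 3-kinase that G proteins activate, fell by 0.76 ± 0.21 (edgeR adjusted p = 0.0480). Rac2, a GTPase of leukocyte migration, had a log2 difference of 0.01 ± 0.37 and Dock2, its exchange factor, 0.35 ± 0.38, both picked after their values were seen. With libraries scaled to general T cell genes, 2 of the 25 were higher and none was lower.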

How the data were processed

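RNA of 6 sorted Treg populations was sequenced, and the files deposited for each protocol hold raw, unnormalized read counts by Entrez gene. The submitters' processing notes name Subread, featureCounts, edgeR and the build mm9, with versions and the use of strand not given in the sources used here. The authors also deposited log2 RPKM values, which served as an alternative. Genes on chromosomes 3, 8 and 9 (GRCm38 names by Entrez number, 3507 genes) were left out, since the single-cell protocol table lacks them but for 2 genes.

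Counts were analysed with edgeR 4.0.16 in R 4.3.3: filterByExpr by population, TMM, and the quasi-likelihood F-test with the protocol as covariate and 3 residual degrees of freedom. P-values were Benjamini-Hochberg adjusted over 10550 genes, with a threshold of 0.05. SE come from the F statistic. TMM factors were 2.06 and 2.02 in poly(A) libraries and 0.519 to 0.847 in the others. P-values measure the spread between these libraries. Alternatives used DESeq2 1.42.0 and limma 3.58.1. The procedure was run on simulated counts drawn with the same dispersion for every gene, which does not check the calls of genes with another spread. A gene with 0 counts may hold up to 3 counts.

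The receptors and gene lists were chosen with earlier results of these data known. All 8 receptors are named. From each list up to 6 called members of largest change are named, plus those that complete a count. For each receptor the 3 genes of most similar pattern are named. Genes on chromosomes 3 and 9 and Cntnap1, Ubac2 and Ccdc86 were named for their position.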

Additional observations from a re-analysis of the deposited data

How the results depend on the processing

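The calls of the 8 receptors, 5 higher and 1 lower, were the same in number with DESeq2, limma-voom, RLE size factors, T cell gene scaling, no low-count filter and all chromosomes kept, and no direction reversed in any alternative. T cell gene scaling moved the median of all genes by 0.29 on the log2 scale towards GFP+ and RLE by -0.03. It raised Gpr183 to 0.67 (adjusted p = 0.106) and Cxcr4 to 0.85 (adjusted p = 0.164), both still short of the threshold with edgeR. Without the protocol covariate 1 receptor was called higher, Ccr10, and 0 lower, and 136 genes in all. The single-cell protocol libraries alone gave 3 receptors higher and 711 genes. Without the low-count filter 2409 genes were called. Leaving out 1 library gave 3 to 5 receptors higher, 1 lower and 721 to 2174 genes, against 1428 with all 6: 740 and 2174 when GFP- replicate 20 or 5 was left out, and 721 when GFP+ replicate 19 was. The share of higher calls was 72.5%, and it was 62.7% with DESeq2 and 87.0% with T cell gene scaling. With the deposited log2 RPKM Gpr44 had 2.10 (limma adjusted p = 0.104). Gpr44 passed with 9 of 15 alternatives, Gpr15 with 10, and Ccr10 with all 15. These alternatives are not all separate checks. Leaving out GFP- replicate 20 or GFP+ replicate 19 nearly repeats the fit of the single-cell protocol libraries alone, since the protocol covariate takes up a lone poly(A) library. No interaction call appeared under scalings and filters added after seeing the data, where the test was also too weak to decide. No paired analysis was run, because the populations share no replicate number and no label pairs their libraries. The title numbers of GFP+ and GFP- libraries are consecutive within each protocol, but pairing by them would be a guess. The tests treat the libraries as independent. Counts of Cxcr4 and Gpr44 were at most 48 in single-cell protocol libraries, which limits their precision there.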

Other observations

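Genes for ligands of these receptors and for enzymes that make them were also read from the tables. Of 18 genes, 2 lie on chromosomes 3, 8 and 9, 10 had too few counts and 6 were tested, and 6 of the 6 rose in GFP+ Treg (edgeR, Benjamini-Hochberg), where 9.82% of tested genes did. The Cxcr3 ligand gene Cxcl10 had 11.5, 24.7 and 32.5 CPM in GFP+ libraries and 5.00, 9.70 and 16.1 CPM in GFP- libraries (log2 fold change 1.17 ± 0.26, SE, n = 3 per population). Cxcl9 rose by 3.08 ± 0.56 and Cxcl16, the ligand of Cxcr6, by 1.70 ± 0.35. Hpgds, a synthase of the Gpr44 ligand prostaglandin D2, had 2.93, 2.21 and 1.52 CPM in GFP+ libraries and 0.696, 0.724 and 0.380 CPM in GFP- libraries (1.85 ± 0.39). Ptgs1, the cyclooxygenase that provides its precursor, rose by 5.43 ± 0.40, and Hsd3b7, an enzyme of oxysterol metabolism that removes Gpr183 ligands, by 1.45 ± 0.32. The ligand genes of Ccr7 and Cxcr4, Ccl19, Ccl21a and Cxcl12, had too few counts to test, and Ccl28 and Ptgds had 0 counts in all 6 libraries. All 11 tested myeloid markers were higher in GFP+ Treg as well, and their part in these values was not tested.

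Markers of B cells were higher for 1 of 6 tested members, Blk, with a summed level of 99.2 to 319 CPM in GFP+ and 68.9 to 180.5 CPM in GFP- libraries. Of dendritic cell markers 1 of 2 tested rose, Itgax, and of natural killer and CD8 T cell markers 2 of 4 fell, Ncr1 and Cd8a, with edgeR, where 9.82% of all tested genes rose and 3.72% fell. Both falls were no longer called with libraries scaled to general T cell genes. Neutrophil markers had 1 tested member, Ly6g, which did not pass with edgeR (1.32 ± 0.44, adjusted p = 0.0898) or limma-voom, and was called higher with DESeq2 and with T cell gene scaling. Cd247, a chain of the T cell receptor complex, had 199 CPM in the GFP+ and 229.5 CPM in the GFP- poly(A) library and at most 0.145 CPM in the single-cell protocol libraries, a protocol difference in the direction of that of Cxcr4. The cause was not tested.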
